A study of Sus scrofa with 9 samples.

Results

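The genes of the nuclear pore complex were followed through 3 stages of sperm formation in the pig. A gene of the deposited table was taken as a member where its symbol starts with NUP and a digit, or is one of 10 other symbols of pore proteins: TPR, RANBP2, NDC1, SEH1L, SEC13, AAAS, RAE1, POM121, POM121C and AHCTF1. This gave 31 of 22342 genes, and all 31 passed the filter on low counts. No symbol in the table matched POM121 or POM121C, so these are not analysed here. RNA came from pig testis cells labelled spermatogonia (mitotic germ cells, libraries 1, 2 and 3), spermatocytes (cells in meiosis, libraries 2, 3 and 4) and round spermatids (haploid cells after meiosis, libraries 1, 2 and 3). The labels name no strain, age, genotype, treatment or way of purifying the cells. They call the libraries biological samples but tie none to an animal, so the p-values measure the spread between libraries. This spread may be technical in part, and in spermatogonia largely so, since those libraries were much alike (r = 0.999 between them). The fit shares its estimate of the spread between the stages.

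Nuclear pores are the channels through the nuclear envelope by which proteins, messenger RNA and ribosomal subunits pass between nucleus and cytoplasm. Their proteins, the nucleoporins, build a scaffold of outer and inner rings, a channel filled with flexible phenylalanine-glycine (FG) repeats, filaments on the cytoplasmic side, a basket on the nuclear side and an anchor in the pore membrane. Nucleoporins of the basket and the outer ring also touch chromatin, and in meiosis and in spermatids the nuclear envelope is reorganised around chromosomes that first pair and later compact.

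Library totals ran from 47963279 to 64639201 estimated counts. CPM below is the count relative to the library total, in the usual CPM unit, scaled by a normalization factor (TMM, a trimmed mean of ratios between libraries), TPM is the deposited level per transcript length, and means are given ± SD over n = 3 libraries. Count over TPM was 1 factor per gene times 1 per library (largest log deviation 3.73e-14 over 16193 genes). A log2 change between stages on TPM thus differs from that on CPM by a shift common to all genes. Stage names mean the libraries so labelled, since markers were mixed. The summed CPM of 8 spermatocyte markers was 2290 to 2800 in spermatocytes, 523 to 541 in spermatogonia and 233 to 309 in round spermatids. SYCP2, MEIOC and HORMAD1 carried most of it, and SPO11 (6.97 against 2.62 CPM) and DMC1 (39.1 against 25.7) were higher on average in spermatogonia than in spermatocytes. For 10 spermatid markers it was 4930 to 7250 in round spermatids, but also 1940 to 1980 in spermatogonia and 493 to 1570 in spermatocytes. PRM1, PRM2, TNP1 and TNP2 carried most of this sum. Of the 10, 4 were higher on average in spermatogonia than in round spermatids: ACRV1 (119 against 52.7 CPM), SPACA1 (81.8 against 40.8), SPACA3 (34.1 against 4.16) and SPACA4 (101 against 8.73). All 7 spermatogonial markers were above 1 CPM on average in every stage, with sums of 121 to 126 CPM in spermatogonia, 37.3 to 48.7 in spermatocytes and 77.4 to 84.3 in round spermatids. KIT, the receptor after which the columns taken as spermatogonia are headed (c-kit), went against that label, at 6.36 ± 0.165 CPM in them, 7.47 ± 0.747 in spermatocytes and 24.6 ± 1.54 in round spermatids. ZBTB16 was no higher in spermatogonia (3.74 CPM) than in round spermatids (4.32). Somatic markers moved with the labels too. The sum of 6 smooth muscle (myoid) markers was 4550 to 5530 CPM in round spermatids, 20.2 to 21.9 in spermatogonia and 8.1 to 20.1 in spermatocytes. Of the other somatic lists, 8 Sertoli cell markers summed to 231 to 317 CPM in round spermatids against 68.0 to 71.8 and 31.4 to 49.1, 4 endothelial markers to 166 to 190 against 9.19 to 10.7 and 4.58 to 16.8, and 5 leukocyte markers to 24.6 to 32.1 against 1.58 to 1.83 and 1.16 to 2.7. The 5 Leydig cell markers found summed to 295 to 313 CPM in spermatogonia, 1.79 to 2.78 in spermatocytes and 15.8 to 20.0 in round spermatids. Among all these markers, AMH in spermatocytes was the one gene listed at 0 in all 3 libraries of a stage. Their part in the results below was not tested. In bulk RNA, fewer cells of a type and less RNA per cell cannot be told apart.

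**Figure D1:**
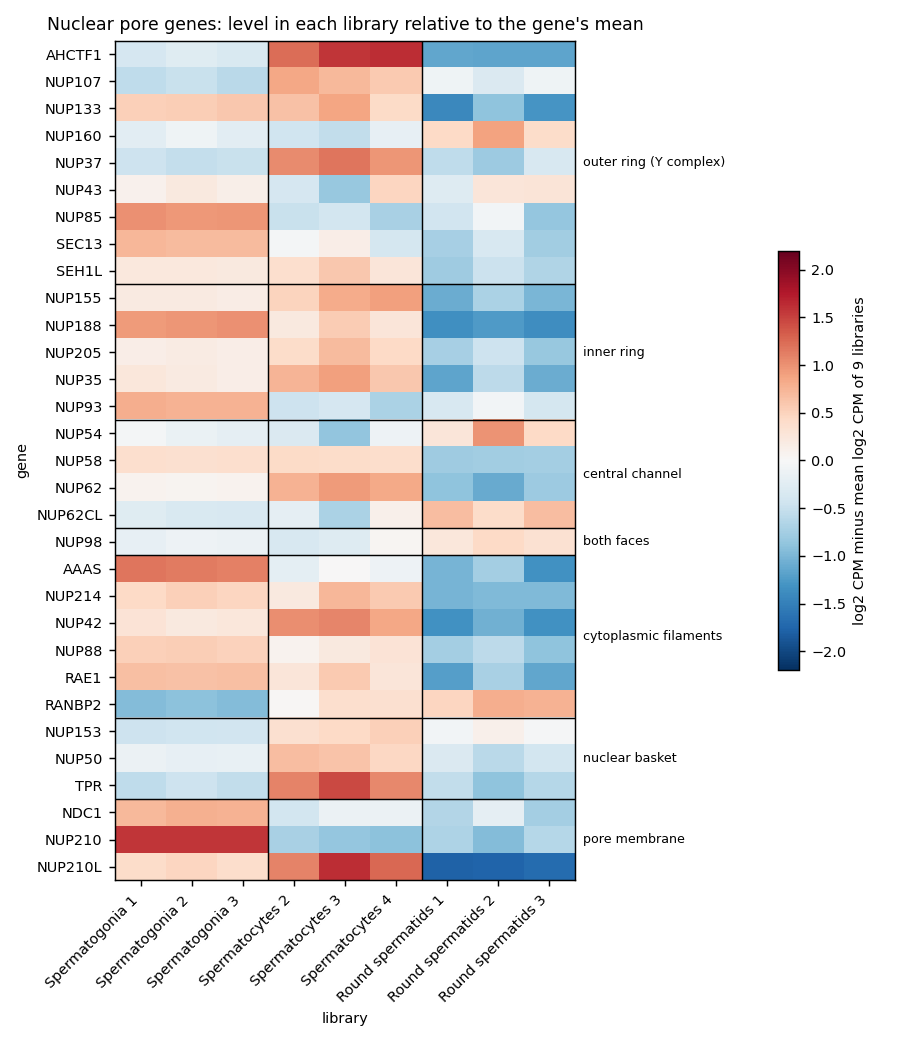
Level of each of the 31 pore genes (rows, grouped by the part of the pore) in each of 9 libraries (columns), as log2 CPM minus the mean log2 CPM of the gene over the 9 libraries. In 14 genes all spermatocyte libraries lie above the other 6, and in 16 genes all round spermatid libraries lie below the other 6.

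The pore genes had no common course. By CPM, all 3 spermatocyte libraries stood above the 6 libraries of the other stages in 14 of the 31 genes. All spermatogonia libraries did in 9 genes, and all round spermatid libraries in 5 genes. Over the 16802 genes tested, these shares were 21.1, 25.3 and 31.3%, against 45.2, 29.0 and 16.1% of the pore genes. The 14 genes highest in spermatocytes were AHCTF1, NUP107, NUP37, SEH1L, NUP155, NUP35, NUP205, NUP58, NUP62, NUP42, NUP50, NUP153, TPR and NUP210L. The 9 highest in spermatogonia were NUP85, SEC13, NUP188, NUP93, AAAS, RAE1, NUP88, NDC1 and NUP210. The 5 highest in round spermatids were NUP160, NUP54, NUP62CL, NUP98 and RANBP2. NUP43, NUP133 and NUP214 stood in none of these groups. The lists differed on TPM, and the shares over all genes were taken on CPM only. On TPM all spermatocyte libraries lay below all spermatogonia libraries for SEH1L, NUP58 and NUP205, while NUP155, NUP35 and NUP153 overlapped another stage. The other genes listed for spermatocytes stayed highest there, as did all 9 of spermatogonia. Of the 5 genes of round spermatids only NUP62CL did. By CPM again, round spermatids lay below all 6 other libraries in 16 genes, or 51.6%, where the share over all genes was 26.9%. Spermatocytes lay below all 6 others in 0 pore genes, against 27.5% of all genes, and spermatogonia in 3 (NUP107, NUP153 and RANBP2), against 14.1%.

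In edgeR's quasi-likelihood test, with Benjamini-Hochberg adjustment over all genes and calls below 0.05, 13 pore genes rose and 8 fell in spermatocytes against spermatogonia, and 10 did not pass. Over all genes 29.3% were called higher and 44.0% lower in this comparison, against 41.9 and 25.8% of the pore genes, and 73.4% were called in either direction. All spermatocyte libraries stood above all spermatogonia libraries in 15 pore genes and below them in 9, where the shares over all genes were 31.9 and 48.1%. The median log2 change of the pore genes was 0.10 and that of all genes -0.32. This split depended on scaling: 9 pore genes rose and 14 fell with no normalization factors, and 5 rose and 10 fell in limma on log2 TPM. The median of all genes was -0.14 with RLE size factors, -0.74 with no factors and -0.08 with scaling that left out the 50 most abundant genes, so changes are read against it. The pore genes' median lay 0.42 above that of all genes with TMM, 0.41 above with RLE and 0.42 above with no factors. In the fit of log2 TPM + 0.5 it lay 0.08 above (-0.45 against -0.525). Transcript length drops out of this gap, since TPM without the added 0.5 shifts the changes of all genes alike. What the added 0.5 did to genes of low TPM was not tested.

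**Figure D2:**
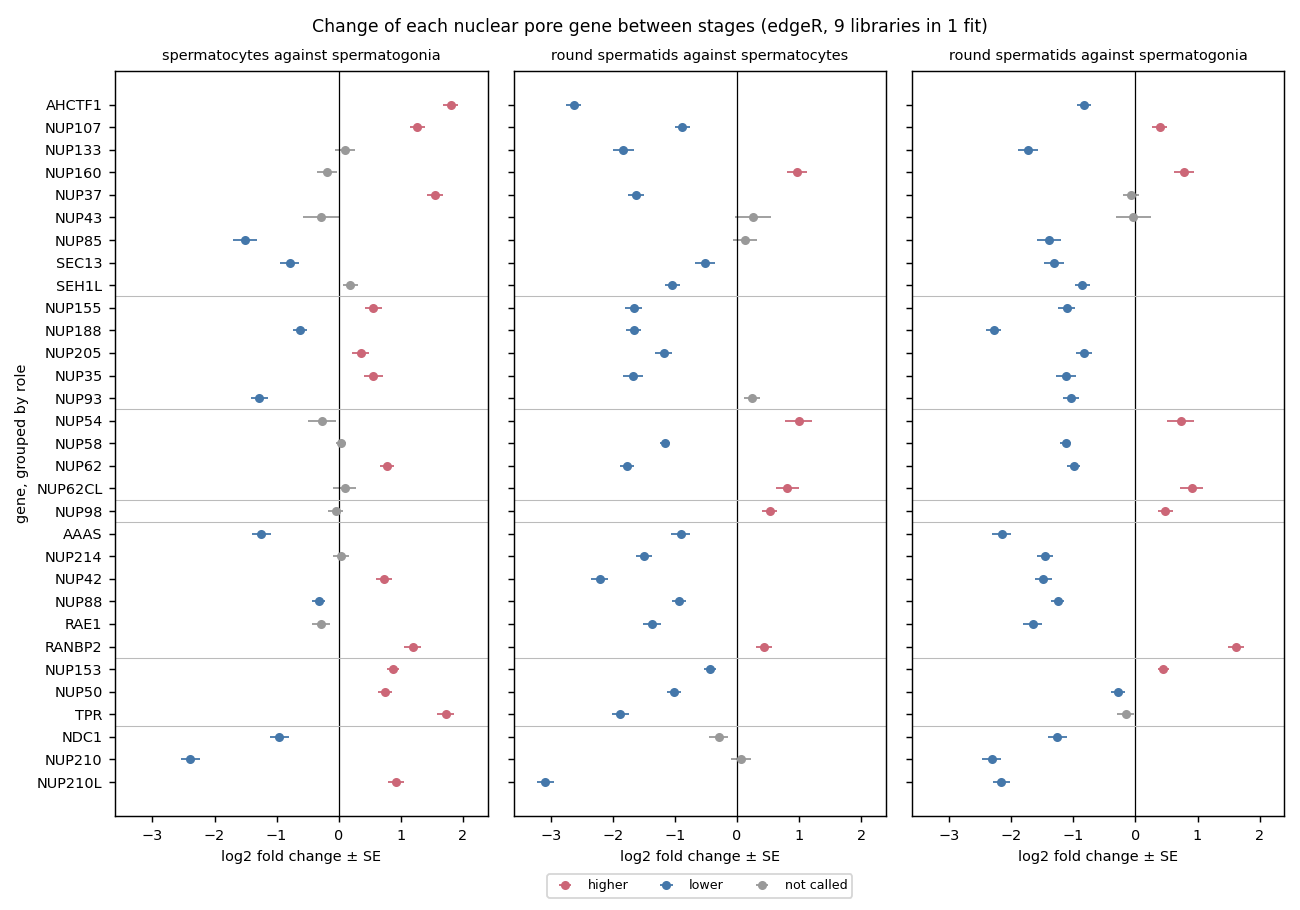
Log2 fold change ± SE of each of the 31 pore genes in the 3 comparisons, from 1 edgeR fit of all 9 libraries, with genes grouped by the part of the pore. Red points were called higher, blue points lower and grey points did not pass: 13 rose and 8 fell in the left panel, 5 and 21 in the middle, 7 and 21 on the right.

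Round spermatids held less transcript of most pore genes than either earlier stage. Against spermatocytes 21 of the 31 fell and 5 rose, where 36.4% of all genes were called lower, 42.7% higher and 79.2% in either direction. The libraries of the 2 stages stood apart in the lower direction in 20 pore genes and in the higher direction in 5, against 36.1 and 42.1% of all genes. The pore genes' median log2 change was -1.02 and that of all genes 0.19. Against spermatogonia again 21 fell and 7 rose, where 39.7% of all genes were called lower, 39.5% higher and 79.2% in either direction, with medians of -1.04 and 0.0029. The libraries stood apart in the lower direction in 21 pore genes and in the higher direction in 7, against 43.5 and 41.7% of all genes. The comparisons share libraries, so they are given side by side and are not independent of each other. With no normalization factors 18 pore genes fell and 8 rose against spermatocytes. On TPM 23 fell and 1, RANBP2, rose against spermatogonia, and with the spermatogonia libraries summed to 1 sample 2 rose. The sum was tried because the spermatogonia libraries were much alike (r = 0.999 between them in log2 CPM, against 0.988 to 0.995 among spermatocytes and 0.982 to 0.998 among round spermatids), and it assumes that the lone sample varies like the other stages. These falls stood beside the myoid sum of 4550 to 5530 CPM in the round spermatid libraries, whose part was not tested.

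Per transcript length, a few genes made up a large part of the signal. NUP188, NUP50, NUP62 and RAE1 were the 4 highest pore genes in spermatogonia, at 459 ± 12.7, 312 ± 4.02, 298 ± 2.33 and 199 ± 1.21 TPM. In spermatocytes the highest were NUP50 at 363 ± 10.8 TPM and NUP62 at 356 ± 28.5, whose ranges over libraries overlapped, then NUP188 at 207 ± 26.6 and AHCTF1 at 156 ± 28.5. In round spermatids they were NUP50 at 170.0 ± 34.5 TPM and NUP62 at 98.6 ± 18.9, which did not overlap, then NUP188 at 63.9 ± 22.8 and NUP88 at 51.2 ± 21.4, which did. In each library the 4 highest pore genes held 42.1 to 51.5% of the summed TPM of all 31. The sum was 2457 to 2496 TPM in spermatogonia, 1985 to 2308 in spermatocytes and 684 to 1178 in round spermatids. In CPM the sums were 4751 to 4792, 5600 to 6494 and 2394 to 2433, so the order of the earlier stages depended on the unit. Round spermatids library 2 stood apart on the TPM scale: it was the highest of its stage for 31 of 31 pore genes by TPM and for 20 by CPM.

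**Figure D3:**
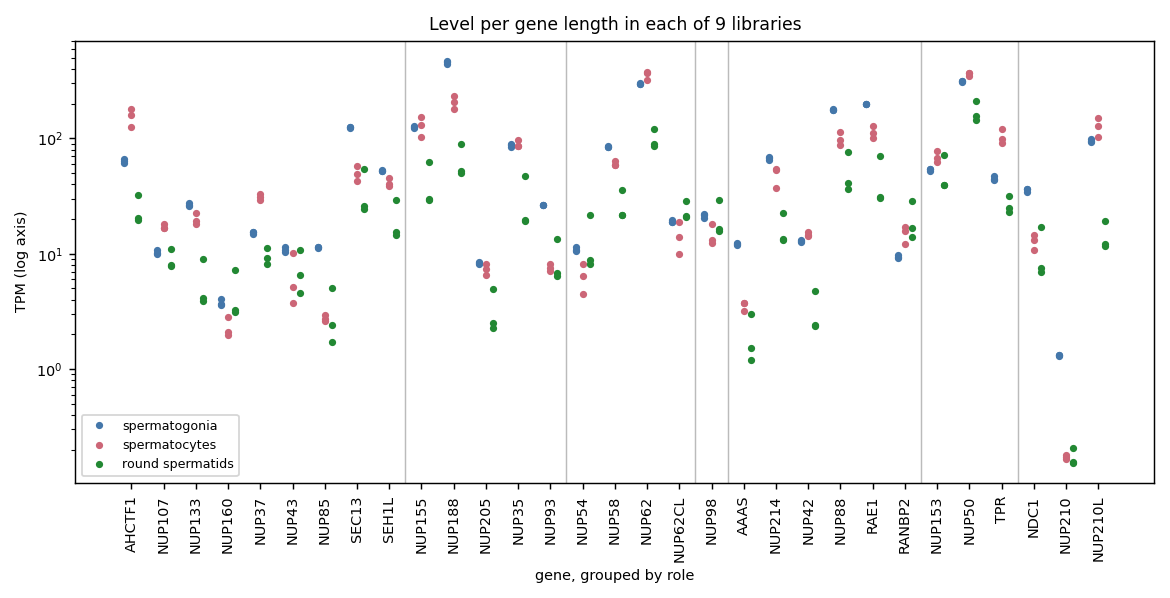
TPM of each of the 31 pore genes in each of 9 libraries on a log axis, coloured by stage and grouped by the part of the pore. Subunits of 1 ring differ widely: NUP188 stands at 459 and NUP205 at 8.31 TPM on average in spermatogonia.

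The outer ring, or Y complex, is the coat that sits on both faces of the pore, and AHCTF1, also called ELYS, is its chromatin-binding subunit that starts pore assembly. Of its 9 genes 3 rose, 2 fell and 4 did not pass in spermatocytes against spermatogonia. In round spermatids 6 fell and 1 rose against spermatocytes, and 5 fell and 2 rose against spermatogonia. Over all genes 29.3% were called higher and 44.0% lower in the first comparison, 42.7 and 36.4% in the second and 39.5 and 39.7% in the third. The counts of each part below stand beside the same shares, and the parts are too small to read them as a trait of a part. AHCTF1 stood at 155, 166 and 158 CPM in the spermatogonia libraries, 468, 593 and 612 in the spermatocyte libraries and 90.6, 89.3 and 89.3 in the round spermatid libraries. The stages did not overlap, and the spermatocyte libraries were the highest. The log2 change was 1.81 ± 0.12 SE, adjusted p = 1.09e-06 (edgeR) in spermatocytes against spermatogonia, the largest rise among the pore genes. In round spermatids it was -2.63 ± 0.12 SE, adjusted p = 2.01e-08 (edgeR) against spermatocytes and -0.83 ± 0.12 SE, adjusted p = 6.85e-05 (edgeR) against spermatogonia. AHCTF1 is ENSSSCG00000010863 and, matched by symbol to RefSeq on Sscrofa11.1, lies on chromosome 10 from 15042168 to 15121885.

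NUP107, a stalk subunit of the Y complex, was also highest in spermatocytes. It stood at 10.2, 10.6 and 9.92 CPM in the spermatogonia libraries, 27.1, 24.7 and 22.5 in the spermatocyte libraries and 14.1, 12.1 and 14.1 in the round spermatid libraries. Its log2 changes were 1.27 ± 0.12 SE, adjusted p = 8.48e-06 (edgeR) in spermatocytes against spermatogonia and -0.88 ± 0.12 SE, adjusted p = 5.63e-05 (edgeR) in round spermatids against spermatocytes. In round spermatids against spermatogonia the change was 0.39 ± 0.12 SE, adjusted p = 0.0131 (edgeR), with libraries that did not overlap. This last call ended without spermatogonia replicate 1 or 3 or round spermatids replicate 3 (log2 change 0.37, 0.35 and 0.34) and turned to -0.22 on TPM, with adjusted p from 0.00082 to 0.298 over 20 alternatives. NUP37, a subunit of the short arms, stood at 14.8 ± 0.364, 43.4 ± 3.02 and 14.1 ± 2.15 CPM in spermatogonia, spermatocytes and round spermatids. It rose by 1.55 in spermatocytes against spermatogonia and changed by -1.63 from spermatocytes to round spermatids. Round spermatids and spermatogonia overlapped for NUP37 (log2 change -0.07 ± 0.13 SE, adjusted p = 0.618, edgeR), but on TPM they did not, and the change was -0.67 and called lower (limma, adjusted p = 0.00358, with 0.00358 to 0.978 over 20 alternatives).

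SEC13 and NUP85 went the other way in spermatocytes. SEC13, which also serves in the COPII coat of secretory vesicles, stood at 99.8, 98.2 and 97.7 CPM in the spermatogonia libraries, 58.4, 66.9 and 45.9 in the spermatocyte libraries and 36.5, 47.4 and 35.4 in the round spermatid libraries. It was highest in spermatogonia, while a spermatocyte library overlapped the round spermatid range. The log2 changes of SEC13 were -0.79 ± 0.16 SE, adjusted p = 0.00108 (edgeR) in spermatocytes against spermatogonia, -0.52 ± 0.16 SE, adjusted p = 0.0107 (edgeR) in round spermatids against spermatocytes and -1.31 ± 0.16 SE, adjusted p = 2.39e-05 (edgeR) in round spermatids against spermatogonia. The middle call ended with no normalization factors (-0.03) and on TPM (-0.60). NUP85, a hub subunit of the Y, stood at 12.2 ± 0.256, 4.28 ± 0.475 and 4.66 ± 1.26 CPM in the 3 stages in order, with a log2 change of -1.51 ± 0.19 SE, adjusted p = 5.68e-05 (edgeR) in spermatocytes against spermatogonia. Round spermatids and spermatocytes overlapped for NUP85 (0.12 ± 0.19 SE, adjusted p = 0.572, edgeR), with 0.61 and a call with no normalization factors.

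Of the remaining Y subunits, NUP133, at the tip of the stalk, stood at 54.9 ± 1.21, 58.98 ± 8.95 and 16.6 ± 3.31 CPM and changed by -1.83 in round spermatids against spermatocytes and by -1.73 against spermatogonia, both called. In spermatocytes against spermatogonia it did not pass (0.10 ± 0.16 SE, adjusted p = 0.561, edgeR), but it was 0.31 and called with only the compared stages fitted. NUP160, a hub subunit, was the one Y gene highest in round spermatids, at 8.36 ± 0.484, 7.34 ± 1.001 and 14.4 ± 2.75 CPM in the 3 stages in order. Its log2 change was 0.97 ± 0.16 SE, adjusted p = 0.000275 (edgeR) against spermatocytes and 0.78 ± 0.16 SE, adjusted p = 0.00119 (edgeR) against spermatogonia, the latter not called on TPM (0.15) or with the spermatogonia libraries summed (0.70). In spermatocytes against spermatogonia NUP160 did not pass, but it was -0.60 and called with no normalization factors. SEH1L, which also serves in the nutrient-sensing GATOR complex, stood at 81.3 ± 0.531, 92.5 ± 10.9 and 44.8 ± 4.86 CPM and fell in round spermatids (log2 change -1.05 against spermatocytes and -0.86 against spermatogonia). In spermatocytes against spermatogonia it did not pass (0.19 ± 0.12 SE, adjusted p = 0.18, edgeR), but 5 of 20 alternatives called it higher (0.37 to 0.43), among them RLE factors and DESeq2. The RefSeq row with the symbol SEH1L lies wholly inside TJP1, and whether the deposited gene is that row is not given, so its position is not printed. NUP43 stood at 9.14, 9.95 and 9.4 CPM in the spermatogonia libraries, 6.64, 4.82 and 11.9 in the spermatocyte libraries and 7.02, 10.4 and 10.5 in the round spermatid libraries. Its stages overlapped in all comparisons and none passed, but without spermatocytes replicate 4, its highest spermatocyte library, the log2 change was -0.72 in spermatocytes against spermatogonia and 0.68 in round spermatids against spermatocytes, both called (edgeR, adjusted p = 0.0112 and 0.0132). Over 20 alternatives its adjusted p ran from 0.00671 to 0.91 and from 0.00711 to 0.987. Without spermatocytes replicate 3 the second of these values was -0.0048.

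The inner ring joins the scaffold to the membrane and the channel. Of its 5 genes 3 rose and 2 fell in spermatocytes, and in round spermatids 4 fell against spermatocytes and all 5 against spermatogonia. NUP188 and NUP205 are its large, related scaffold proteins, and NUP188 was the pore gene of the highest mean TPM in spermatogonia. NUP188 stood at 1394, 1424 and 1453 CPM in the spermatogonia libraries, 839, 1072 and 868 in the spermatocyte libraries and 286, 307 and 282 in the round spermatid libraries. The 3 stages did not overlap and stood in that order. The log2 changes were -0.62 ± 0.12 SE, adjusted p = 0.000698 (edgeR) in spermatocytes against spermatogonia, -1.67 ± 0.12 SE, adjusted p = 3.38e-07 (edgeR) in round spermatids against spermatocytes and -2.29 ± 0.12 SE, adjusted p = 7.57e-08 (edgeR) in round spermatids against spermatogonia. NUP188 is ENSSSCG00000005667 and lies on chromosome 1 from 269259496 to 269312872 of Sscrofa11.1 by symbol.

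NUP205 had far less transcript per length than its partner. The ratio of the highest to the lowest mean TPM among the 5 inner ring genes, NUP188 over NUP205, was 55.2 in spermatogonia, 28.1 in spermatocytes and 19.8 in round spermatids. NUP205 stood at 19.8, 20.1 and 19.8 CPM in the spermatogonia libraries, 23.6, 28.7 and 24.03 in the spermatocyte libraries and 10.7, 12.9 and 10 in the round spermatid libraries. Its spermatocyte libraries were the highest and its round spermatid libraries the lowest. The log2 changes were 0.35 ± 0.13 SE, adjusted p = 0.0319 (edgeR) in spermatocytes against spermatogonia, -1.18 ± 0.13 SE, adjusted p = 1.25e-05 (edgeR) in round spermatids against spermatocytes and -0.83 ± 0.13 SE, adjusted p = 0.000194 (edgeR) in round spermatids against spermatogonia. The first of these turned to -0.07 with no normalization factors and -0.16 on TPM. It also lost its call without a spermatogonia library, whichever it was, or spermatocytes replicate 3 (0.26 to 0.36), with adjusted p from 0.00122 to 0.714 over 20 alternatives.

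NUP155 and NUP35, which bind the pore membrane, had the same calls. NUP155 stood at 192, 193 and 189 CPM in the spermatogonia libraries, 236, 296 and 313 in the spermatocyte libraries and 78.8, 104 and 83.5 in the round spermatid libraries. NUP35 stood at 47.8, 46.2 and 44.4 CPM in the spermatogonia libraries, 67.7, 75.5 and 60.96 in the spermatocyte libraries and 17.9, 27.0 and 19.01 in the round spermatid libraries. For both genes the spermatocyte libraries were the highest and the round spermatid libraries the lowest, without overlap. NUP155 had log2 changes of 0.56 ± 0.14 SE, adjusted p = 0.00401 in spermatocytes against spermatogonia, -1.67 ± 0.14 SE, adjusted p = 1.29e-06 in round spermatids against spermatocytes and -1.11 ± 0.14 SE, adjusted p = 3.13e-05 in round spermatids against spermatogonia (edgeR). NUP35 had 0.56 ± 0.16 SE, adjusted p = 0.00858, -1.67 ± 0.16 SE, adjusted p = 3.72e-06 and -1.11 ± 0.16 SE, adjusted p = 8.64e-05 (edgeR) in the same order. The rises in spermatocytes were 0.14 with no normalization factors for either gene and 0.02 and 0.03 on TPM, none called. With the spermatogonia libraries summed they were 0.49 for either gene and not called. NUP93, which links the inner ring to the channel, stood at 31.02 ± 0.293, 12.8 ± 1.48 and 15.1 ± 1.98 CPM in the 3 stages in order, with a log2 change of -1.28 ± 0.13 SE, adjusted p = 1.46e-05 (edgeR) in spermatocytes against spermatogonia and -1.04 ± 0.13 SE, adjusted p = 3.7e-05 (edgeR) in round spermatids against spermatogonia. Its round spermatid and spermatocyte libraries overlapped (0.24 ± 0.13 SE, adjusted p = 0.117, edgeR), but the change was called higher with no normalization factors (0.72) and with a CPM of at least 1 in 3 libraries (0.31).

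The central channel is lined by NUP62, NUP54 and NUP58, FG nucleoporins that form 1 complex and meet the transport receptors. With the paralog NUP62CL, 1 of these 4 genes rose in spermatocytes and none fell, and in round spermatids 2 rose and 2 fell against either earlier stage. NUP62 stood at 197, 194 and 197 CPM in the spermatogonia libraries, 318, 358 and 333 in the spermatocyte libraries and 101, 86.8 and 107 in the round spermatid libraries. The stages did not overlap, with spermatocytes the highest and round spermatids the lowest. Its log2 changes were 0.78 ± 0.11 SE, adjusted p = 8.56e-05 (edgeR) in spermatocytes against spermatogonia, -1.77 ± 0.11 SE, adjusted p = 1.21e-07 (edgeR) in round spermatids against spermatocytes and -0.99 ± 0.11 SE, adjusted p = 9.49e-06 (edgeR) in round spermatids against spermatogonia, the first 0.25 and not called on TPM. By symbol NUP62 lies wholly inside IL4I1 on Sscrofa11.1, so reads of the 2 genes may be mixed. NUP58 stood at 119 ± 0.567, 122 ± 1.6 and 54.6 ± 0.671 CPM in the 3 stages in order and did not pass in spermatocytes against spermatogonia (0.04 ± 0.08 SE, adjusted p = 0.721, edgeR). Alternatives called NUP58 in both directions there: lower with no normalization factors (-0.39) and on TPM (-0.49), and higher with scaling without the 50 most abundant genes (0.28), with DESeq2 (0.22) and with only the compared stages fitted (0.24). It fell in round spermatids (log2 change -1.16 against spermatocytes and -1.13 against spermatogonia). NUP54 stood at 12.1, 11.3 and 10.9 CPM in the spermatogonia libraries, 10.1, 6.88 and 11.6 in the spermatocyte libraries and 15.2, 24.8 and 16.9 in the round spermatid libraries. It was highest in round spermatids without overlap, with log2 changes of 0.99 ± 0.22 SE, adjusted p = 0.0019 (edgeR) against spermatocytes, the largest rise among the pore genes there, and 0.73 ± 0.22 SE, adjusted p = 0.0113 (edgeR) against spermatogonia. The second was not called on TPM (0.08) or with the spermatogonia libraries summed (0.65). In spermatocytes against spermatogonia NUP54 did not pass, but it was -0.68 and called with no normalization factors. By symbol NUP58 matched a RefSeq row typed as a long non-coding RNA, and whether the deposited gene is that row is not given. By CPM, NUP62 and NUP58 of the 3 partners were thus lower in round spermatids and NUP54 higher. On TPM the first 2 stayed lower without overlap. NUP54 stood at 8.12, 21.6 and 8.83 TPM in the round spermatid libraries and overlapped both earlier stages.

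NUP98 gives rise to 2 nucleoporins, the mobile FG protein NUP98 and the Y subunit NUP96, cut from 1 precursor, and counts per gene cannot separate them. NUP98 stood at 63.8, 67.2 and 66.6 CPM in the spermatogonia libraries, 56.9, 59.98 and 74.9 in the spermatocyte libraries and 86.3, 98.2 and 91.3 in the round spermatid libraries. Spermatogonia and spermatocytes overlapped, and all round spermatid libraries were higher. The log2 change was 0.52 ± 0.12 SE, adjusted p = 0.00223 (edgeR) against spermatocytes and 0.48 ± 0.12 SE, adjusted p = 0.00387 (edgeR) against spermatogonia, and on TPM these were 0.43 and -0.13, neither called. The second was also not called with the spermatogonia libraries summed (0.40). In spermatocytes against spermatogonia NUP98 did not pass (-0.04 ± 0.12 SE, adjusted p = 0.758, edgeR), but it was -0.46 and called with no normalization factors.

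The cytoplasmic filaments carry the last steps of mRNA export and of nuclear import complexes. Of their 6 genes 2 rose, 2 fell and 2 did not pass in spermatocytes against spermatogonia, and in round spermatids 5 fell and 1 rose against either earlier stage. The gene that rose was RANBP2, the large filament protein that binds the GTPase Ran and acts as a SUMO ligase. RANBP2 stood at 37.5, 38.9 and 37.5 CPM in the spermatogonia libraries, 73.6, 94.1 and 92.6 in the spermatocyte libraries and 101, 126 and 124 in the round spermatid libraries. Spermatogonia were the lowest, and the lowest round spermatid library stood above the highest spermatocyte library. The log2 changes were 1.19 ± 0.13 SE, adjusted p = 1.97e-05 (edgeR) in spermatocytes against spermatogonia, 0.43 ± 0.13 SE, adjusted p = 0.0103 (edgeR) in round spermatids against spermatocytes and 1.62 ± 0.13 SE, adjusted p = 1.24e-06 (edgeR) in round spermatids against spermatogonia, the highest among the pore genes there. The middle call ended with RLE factors (0.32), with scaling without the 50 most abundant genes (0.23), without a filter (0.23) and on TPM (0.34).

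AAAS, also called aladin, is held at the pore by NDC1. It stood at 46.2, 45.1 and 44.03 CPM in the spermatogonia libraries, 17.5, 20.6 and 18.9 in the spermatocyte libraries and 10.1, 12.2 and 8.11 in the round spermatid libraries. The 3 stages did not overlap and stood in that order, with log2 changes of -1.25 ± 0.15 SE, adjusted p = 3.5e-05, -0.91 ± 0.15 SE, adjusted p = 0.000225 and -2.16 ± 0.15 SE, adjusted p = 4.96e-07 (edgeR) in spermatocytes against spermatogonia, round spermatids against spermatocytes and round spermatids against spermatogonia. The second was -0.43 and not called with no normalization factors. NUP42, the docking site of the export factor GLE1, stood at 10.7, 10.2 and 10.3 CPM in the spermatogonia libraries, 17.7, 18.4 and 15.7 in the spermatocyte libraries and 3.47, 4.2 and 3.48 in the round spermatid libraries. It was highest in spermatocytes and lowest in round spermatids without overlap. Its log2 changes in the same order were 0.73 ± 0.13 SE, adjusted p = 0.000432, -2.21 ± 0.13 SE, adjusted p = 1.07e-07 and -1.48 ± 0.13 SE, adjusted p = 2.22e-06 (edgeR), the first 0.31 with no normalization factors and 0.20 on TPM, neither called.

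NUP88 and NUP214 form the filament base together. NUP88 stood at 200.5, 204 and 199.7 CPM in the spermatogonia libraries, 148, 162 and 173 in the spermatocyte libraries and 83.3, 94.3 and 75.9 in the round spermatid libraries. Its libraries did not overlap between stages and fell from spermatogonia to round spermatids. The log2 changes were -0.32 ± 0.11 SE, adjusted p = 0.0207, -0.93 ± 0.11 SE, adjusted p = 1.75e-05 and -1.25 ± 0.11 SE, adjusted p = 2.18e-06 (edgeR) in the same order of comparisons. The first of these lost its call in 10 of 20 alternatives, among them those without a spermatogonia library, whichever it was, or spermatocytes replicate 2 (-0.33 to -0.27), with RLE factors (-0.14) and with scaling without the 50 most abundant genes (-0.08). Its adjusted p ran from 0.00116 to 0.569. NUP214 stood at 265 ± 7.13, 272 ± 47.2 and 95.97 ± 2.04 CPM in the 3 stages in order and fell in round spermatids (log2 change -1.50 against spermatocytes and -1.47 against spermatogonia), but its 2 earlier stages overlapped. RAE1, an mRNA export factor that binds NUP98, stood at 300.1 ± 2.64, 246 ± 31.4 and 95.3 ± 18.8 CPM and fell in the same comparisons (log2 change -1.37 and -1.66). RAE1 did not pass in spermatocytes against spermatogonia (-0.28 ± 0.15 SE, adjusted p = 0.102, edgeR), though 4 of 20 alternatives called it lower: no normalization factors (-0.71), TPM (-0.81), and leaving out spermatocytes replicate 3 (-0.39) or round spermatids replicate 2 (-0.28). The adjusted p of RAE1 ran from 0.00506 to 0.845 in these edgeR, DESeq2 and limma fits.

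The nuclear basket reaches into the nucleus, where TPR forms its filaments, NUP153 anchors it and NUP50 helps to release imported cargo. All 3 basket genes rose in spermatocytes against spermatogonia, where 29.3% of all genes were called higher. All 3 fell in round spermatids against spermatocytes, where 36.4% of all genes were called lower. TPR stood at 105, 114 and 107 CPM in the spermatogonia libraries, 330.4, 426 and 322 in the spermatocyte libraries and 107, 83.9 and 101 in the round spermatid libraries. The spermatocyte libraries were far above the others, and round spermatids overlapped spermatogonia. The log2 change was 1.72 ± 0.14 SE, adjusted p = 3.12e-06 (edgeR) in spermatocytes against spermatogonia and -1.88 ± 0.14 SE, adjusted p = 5.17e-07 (edgeR) in round spermatids against spermatocytes. In round spermatids against spermatogonia it was -0.16 ± 0.14 SE, adjusted p = 0.307 (edgeR), and -0.77 and called on TPM. TPR is ENSSSCG00000015576 and lies on chromosome 9 from 127481678 to 127540393 of Sscrofa11.1 by symbol.

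NUP153 stood at 113, 115 and 116 CPM in the spermatogonia libraries, 199.6, 210.4 and 224 in the spermatocyte libraries and 149, 169 and 152 in the round spermatid libraries. Spermatocytes were the highest and spermatogonia the lowest without overlap. The log2 changes were 0.88 ± 0.10 SE, adjusted p = 1.88e-05, -0.43 ± 0.10 SE, adjusted p = 0.00177 and 0.45 ± 0.10 SE, adjusted p = 0.00135 (edgeR) in spermatocytes against spermatogonia, round spermatids against spermatocytes and round spermatids against spermatogonia. The second turned to 0.04 with no normalization factors and the third to -0.16 on TPM. The third was also not called with the spermatogonia libraries summed (0.37). NUP50 stood at 888, 855 and 869 CPM in the spermatogonia libraries, 1551, 1504 and 1321 in the spermatocyte libraries and 781, 641 and 735 in the round spermatid libraries. It was among the most abundant pore genes in every library. Its log2 changes in the same order were 0.74 ± 0.11 SE, adjusted p = 0.000174, -1.02 ± 0.11 SE, adjusted p = 1.08e-05 and -0.28 ± 0.11 SE, adjusted p = 0.0427 (edgeR). The last lost its call in 11 of 20 alternatives, with adjusted p from 0.000353 to 0.176, among them those without a spermatogonia library, whichever it was, or round spermatids replicate 3 (-0.30 to -0.27). On TPM the rises of NUP153 and NUP50 in spermatocytes were 0.35 and 0.22, neither called. As a share of the summed TPM of the 31 genes, which no library scaling changes, the basket held 16.4 to 16.7% in spermatogonia, 23.2 to 26.5% in spermatocytes and 26.6 to 31.7% in round spermatids. NUP50 alone held 12.3 to 12.8, 15.4 to 18.7 and 17.8 to 22.5% in the same order, and its reads may be mixed with those of an overlapping gene. The inner ring held 28.3 to 28.7, 19.4 to 20.8 and 15.7 to 18.4%, of which NUP188 alone held 18.1 to 18.9, 9.11 to 10.1 and 7.27 to 7.65%.

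**Figure D4:**
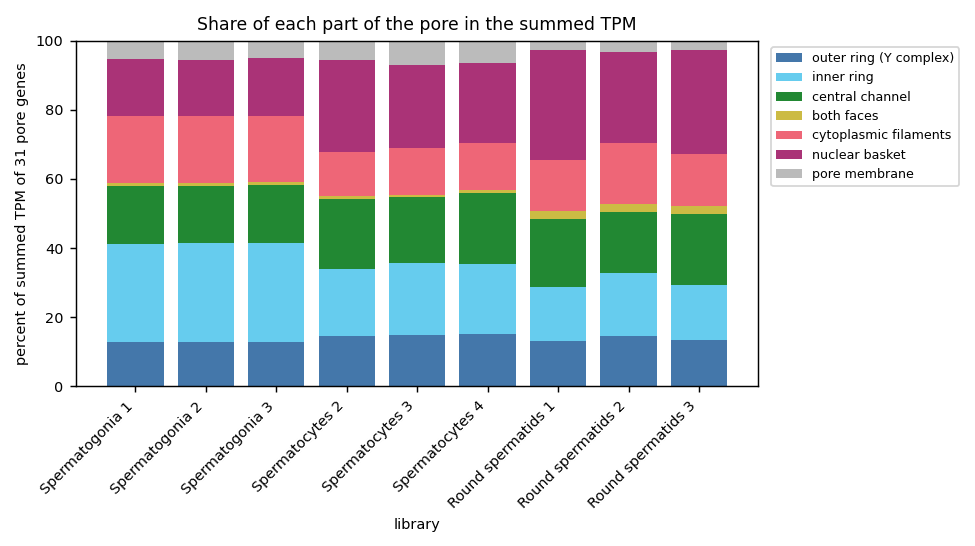
Share of each part of the pore in the summed TPM of the 31 pore genes in each library, as stacked percentages. The basket takes 16.4 to 16.7% in spermatogonia and 26.6 to 31.7% in round spermatids, and the inner ring 28.3 to 28.7% and 15.7 to 18.4%. NUP50 alone takes 12.3 to 12.8% and 17.8 to 22.5% in these stages.

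The membrane part held a pair of related genes with opposite calls in spermatocytes. NUP210 is the widespread membrane-spanning pore protein and NUP210L its paralog, known for expression in testis. Of the 3 membrane genes 1 rose and 2 fell in spermatocytes, and in round spermatids 1 fell against spermatocytes and all 3 against spermatogonia. NUP210L stood at 203, 211 and 199.8 CPM in the spermatogonia libraries, 326, 471 and 367 in the spermatocyte libraries and 44.8, 44.9 and 47.1 in the round spermatid libraries. NUP210 stood at 7.23, 7.23 and 7.26 CPM in the spermatogonia libraries, 1.49, 1.35 and 1.3 in the spermatocyte libraries and 1.52, 1.26 and 1.57 in the round spermatid libraries. For NUP210L the spermatocyte libraries were the highest and the round spermatid libraries the lowest, while NUP210 was highest in spermatogonia and its later stages overlapped. NUP210L had log2 changes of 0.92 ± 0.13 SE, adjusted p = 0.00012 in spermatocytes against spermatogonia, -3.09 ± 0.14 SE, adjusted p = 1.98e-08 in round spermatids against spermatocytes, the largest fall among the pore genes, and -2.17 ± 0.14 SE, adjusted p = 2.28e-07 in round spermatids against spermatogonia (edgeR). NUP210 had -2.39 ± 0.16 SE, adjusted p = 1.12e-06 (edgeR) in spermatocytes against spermatogonia, the largest fall there. It had -2.32 ± 0.16 SE, adjusted p = 3.23e-07 (edgeR) in round spermatids against spermatogonia and 0.07 ± 0.16 SE, adjusted p = 0.7 (edgeR) in round spermatids against spermatocytes. The latter was 0.52 and called with no normalization factors. On TPM the rise of NUP210L in spermatocytes was 0.38 and not called.

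Per transcript length NUP210L exceeded NUP210 in every library. The TPM ratio of NUP210L to NUP210 was 72.6, 75.5 and 71.2 in spermatogonia, 564, 899 and 732 in spermatocytes, and 76.0, 92.8 and 77.2 in round spermatids. As a share of the pair's TPM, NUP210L held 98.65% ± 0.04 (SD, n = 3), 99.86% ± 0.03 and 98.79% ± 0.13. In the exact two-sided permutation test each of the 3 pairs of stages gave p = 0.1, the smallest that 3 against 3 libraries allow, also after adjustment over the 6 comparisons of both paralog pairs. The same share taken on CPM gave differences of 3.06, -2.72 and 0.34 percentage points, against 1.21, -1.07 and 0.14 on TPM, in the order of the comparisons above. NUP210L is ENSSSCG00000038125, on chromosome 4 from 95573974 to 95697196, and NUP210 is ENSSSCG00000011610, on chromosome 13 from 70917464 to 71007273 of Sscrofa11.1 by symbol. NDC1, the membrane protein that holds AAAS, stood at 45.6 ± 1.11, 23.5 ± 2.44 and 19.1 ± 4.08 CPM in the 3 stages in order, with a log2 change of -0.96 ± 0.15 SE, adjusted p = 0.000259 (edgeR) in spermatocytes against spermatogonia. It had -1.26 ± 0.15 SE, adjusted p = 2.72e-05 (edgeR) in round spermatids against spermatogonia. Against spermatocytes it did not pass (-0.30 ± 0.15 SE, adjusted p = 0.0986, edgeR), but it was called lower in 5 of 20 alternatives: with RLE factors (-0.40), DESeq2 (-0.40), scaling without the 50 most abundant genes (-0.49) and no filter (-0.49), and without round spermatids replicate 2 (-0.49). With no normalization factors it was 0.18 and not called. Its adjusted p ran from 0.00246 to 0.418 in these edgeR, DESeq2 and limma fits.

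**Figure D5:**
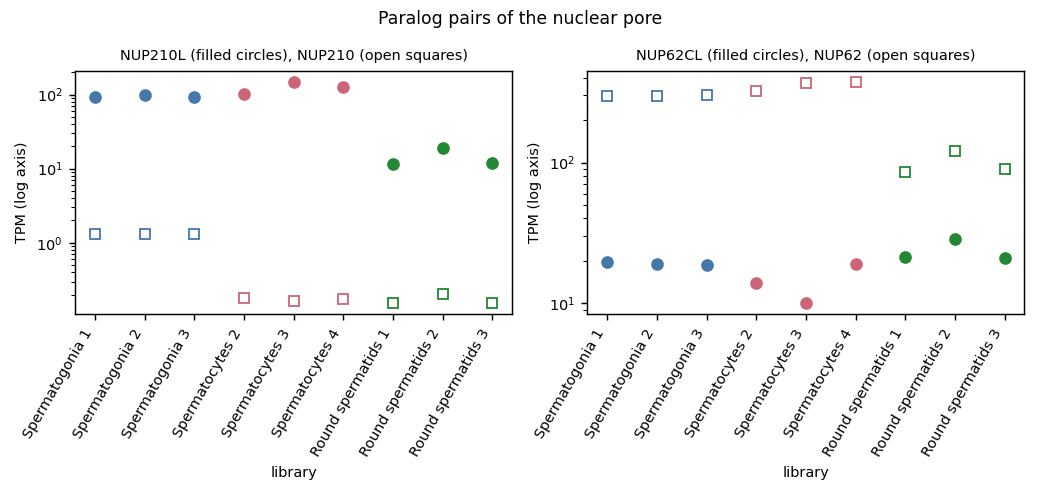
TPM on a log axis in each of 9 libraries for the paralog pairs NUP210L (filled circles) and NUP210 (open squares), left, and NUP62CL (filled circles) and NUP62 (open squares), right. NUP210L lies above NUP210 by a ratio of 71.2 or more in every library, and NUP62CL comes nearest to NUP62 in round spermatids.

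NUP62CL resembles the C-terminal part of NUP62 and was the one X-linked pore gene by the RefSeq match, on chromosome X from 87578656 to 87658296 (ENSSSCG00000012557). NUP62CL stood at 13.3, 12.8 and 12.6 CPM in the spermatogonia libraries, 14.03, 9.97 and 17.3 in the spermatocyte libraries and 25.6, 21.2 and 25.7 in the round spermatid libraries. Spermatogonia lay inside the spermatocyte range, and all round spermatid libraries were higher. Its log2 change was 0.81 ± 0.18 SE, adjusted p = 0.002 (edgeR) in round spermatids against spermatocytes and 0.91 ± 0.18 SE, adjusted p = 0.000991 (edgeR) against spermatogonia, the latter 0.28 and not called on TPM. Of the TPM of NUP62CL and NUP62 together, NUP62CL held 6.03% ± 0.16 in spermatogonia, 3.87% ± 1.11 in spermatocytes and 19.34% ± 0.45 in round spermatids (SD, n = 3). The ranges did not overlap between any stages, and each exact two-sided permutation test again gave p = 0.1, the smallest possible.

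Transcript length was set beside the changes. Across the 31 genes, which are not independent replicates, Spearman's rho between log2 change and the effective length behind the TPM was -0.01 in spermatocytes against spermatogonia, -0.01 in round spermatids against spermatocytes and -0.14 in round spermatids against spermatogonia. Over 15968 genes it was -0.07, 0.08 and 0.05.

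The pore's transport partners were described from a list of 54 genes, of which 51 were found and 50 passed the filter. IPO13, RAN and DDX19A were not matched by symbol and not used here, and KPNA7 did not pass the filter. In spermatocytes against spermatogonia 20 of the 50 rose and 15 fell. In round spermatids 9 rose and 32 fell against spermatocytes, and 13 rose and 25 fell against spermatogonia. The shares of all genes called higher and lower were those given above, 29.3 and 44.0%, 42.7 and 36.4%, and 39.5 and 39.7%. The first split moved both ways with scaling: 14 higher and 23 lower with no normalization factors, but 26 and 10 with RLE factors and 25 and 11 with DESeq2. On TPM the counts of higher genes were 11, 5 and 5.

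Export receptors carry cargo out of the nucleus. Of 7, 3 rose and 3 fell in spermatocytes. Then 6 fell and none rose in round spermatids against either earlier stage, where CSE1L, the exporter of importin alpha, did not pass. XPOT, the exporter of transfer RNA, rose by 1.52 on the log2 scale, on which all changes of this list are given, in spermatocytes (312 against 109 CPM) and changed by -2.78 in round spermatids against spermatocytes (45.6 CPM). XPO6, the exporter of actin, fell by 0.76 in spermatocytes, and XPO5, the exporter of microRNA precursors, fell by 1.90 in round spermatids against spermatogonia. Of 11 import receptors 5 rose and 2 fell in spermatocytes, then 1 rose and 8 fell in round spermatids against spermatocytes, and 3 rose and 5 fell against spermatogonia. TNPO1 rose by 2.02 and IPO4 fell by 1.30 in spermatocytes (log2). KPNB1, the main importin beta, changed by -2.24 in round spermatids against spermatocytes (128 against 605 CPM), while IPO7 rose by 1.26. Against spermatogonia IPO7 rose by 1.92 and TNPO2 fell by 2.78.

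Importin alpha genes, the adaptors between cargo and importin beta, differed among themselves. Of 6 tested, 4 rose and 1 fell in spermatocytes, 2 rose and 4 fell in round spermatids against spermatocytes, and 3 rose and 3 fell against spermatogonia. KPNA4 rose by 1.22 and KPNA6 fell by 0.38 in spermatocytes. KPNA1 stood at 14.0, 14.6 and 13.6 CPM in spermatogonia, 14.1, 12.3 and 14.5 in spermatocytes, and 40.2, 51.0 and 43.4 in round spermatids, where its log2 change was 1.72 ± 0.13 SE against spermatocytes and 1.67 ± 0.13 SE against spermatogonia. KPNA5 fell by 2.32 in round spermatids against spermatocytes and KPNA2 fell by 1.27 against spermatogonia.

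In the Ran cycle, which gives transport its direction, 1 of 6 rose and 2 fell in spermatocytes, and 2 rose and 2 fell in round spermatids against either stage. RANBP1 rose by 0.77 and RANGAP1 fell by 0.75 in spermatocytes. NUTF2, the importer of Ran, rose by 1.33 (log2) against spermatocytes and 1.67 against spermatogonia in round spermatids, where RANBP3 had log2 changes of -1.20 and -1.19. RANBP3L was called higher in round spermatids against spermatogonia at 0.281 against 0.104 CPM, a level near the limit of counting. Of 17 mRNA export genes 5 rose and 6 fell in spermatocytes, 4 rose and 9 fell in round spermatids against spermatocytes, and 5 rose and 8 fell against spermatogonia. THOC7 rose by 1.86 in spermatocytes. THOC6, of the same export complex, stood at 6.80, 7.32 and 6.52 CPM in spermatogonia, 2.96, 2.49 and 2.30 in spermatocytes, and 40.7, 44.97 and 41.3 in round spermatids. Its log2 changes were -1.41 ± 0.13, 4.03 ± 0.14 and 2.62 ± 0.13 SE in the order of the comparisons. MCM3AP, the scaffold of the export complex TREX-2, fell by 2.65 in round spermatids against spermatocytes and by 3.11 against spermatogonia. Of 3 other pore-bound proteins, the SUMO proteases SENP1 and SENP2 rose in spermatocytes, SENP1 by 1.79, and fell in round spermatids against spermatocytes, SENP1 by 1.94. The checkpoint protein gene MAD1L1 fell by 0.90 in spermatocytes and by 1.51 in round spermatids against spermatogonia.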

How the data were processed

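Total RNA of 9 pig testis libraries was sequenced with a directional kit, per the labels' protocols. The authors deposited estimated counts and TPM (a level per transcript length) per Ensembl gene, in tables of 15 library columns, of which 6 were not used. The submitters' processing notes name bcl2fastq and the build Sscrofa11.1, while aligner, counter and strand setting were not given in the sources used here. Columns headed c-kit and Pachy were matched to the spermatogonia and spermatocyte labels by the meaning of the headings and their numbers. Symbols were matched for 14749 of 22342 identifiers, and 29 of the 31 pore genes had a RefSeq row. Without a stated strand setting, reads of pore genes that overlap another gene (NUP50, NUP62, NUP54, NUP88, NUP37, NUP43, TPR and SEH1L, and, overlapping a pseudogene, NUP85 and NUP210L) may be mixed with it.

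Counts were rounded to whole numbers and fitted over all 9 libraries with edgeR 4.0.16 (filterByExpr, TMM, quasi-likelihood F test) in R 4.3.3, with Benjamini-Hochberg adjustment over 16802 genes and calls below 0.05. Paralog shares were compared by exact two-sided permutation (scipy 1.17.1). The 20 alternatives covered scaling, filters, DESeq2 1.42.0, limma 3.58.1 (voom, and log2 of TPM + 0.5), a fit of only the compared stages, a replicate block, each library left out, and summed spermatogonia libraries. The code was tested on simulated data in which most genes were equal between stages. Since most genes differed between the real stages, this does not test the scaling. Values in every library are given for genes called in all 3 comparisons, for the highest and lowest change in each, for paralogs and for the highest TPM of each stage, and TPR, NUP43, NUP98, KPNA1 and THOC6 were added after their values were seen. Transport genes named are mainly the called genes of the highest and lowest change in each list, a choice also made after the data were seen. The members and lists were chosen with earlier results of these data known. Gene roles are background knowledge.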

Additional observations from a re-analysis of the deposited data

How the results depend on the processing

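Of the 75 calls on pore genes, 54 stood in all 20 alternatives: 12 of 21 in spermatocytes against spermatogonia, 21 of 26 in round spermatids against spermatocytes and 21 of 28 in round spermatids against spermatogonia. On TPM, 5 pore genes were higher in the first comparison, 3 in the second and 1 in the third. With no normalization factors 14 were lower in the first and 8 higher in the second, and with the spermatogonia libraries summed 2 were higher in the third. Leaving out each library in turn gave 12 to 13 higher and 7 to 9 lower, then 5 to 6 and 21 to 22, then 6 to 7 and 20 to 21. For the transport list, TPM gave 11, 5 and 5 higher, no normalization factors 23 lower in the first comparison and 14 higher in the second, and summed spermatogonia libraries 7 higher in the third. With RLE factors the first transport split was 26 higher and 10 lower, and with DESeq2 25 and 11. Taken on CPM, the NUP210L share differed by 3.06, -2.72 and 0.34 points. Signs also turned for single genes, most of them not called in the reported fit. On TPM, as with other scaling factors, the change of library scale was common to all genes, apart from the 0.5 added to TPM. What else took part was not tested. Of the turned values below, NUP58 with no normalization factors and on TPM and NUP214 with no normalization factors were called lower. With limma on log2 TPM the values were SEH1L -0.34, NUP214 -0.49, NUP133 -0.42, NUP62CL -0.45, NUP205 -0.16, NUP58 -0.49 in spermatocytes against spermatogonia, and NUP210 -0.0036 in round spermatids against spermatocytes, and NUP107 -0.22, NUP98 -0.13, NUP153 -0.16 in round spermatids against spermatogonia. With no normalization factors the values were SEH1L -0.24, NUP214 -0.39, NUP133 -0.32, NUP62CL -0.31, NUP205 -0.071, NUP58 -0.39 in spermatocytes against spermatogonia, and NUP153 0.036, NDC1 0.18 in round spermatids against spermatocytes, and NUP43 0.015 in round spermatids against spermatogonia. With RLE size factors the values were NUP98 0.14 in spermatocytes against spermatogonia, and NUP210 -0.043 in round spermatids against spermatocytes, and NUP43 0.042 in round spermatids against spermatogonia. With scaling without the 50 most abundant genes the values were NUP160 0.052, NUP98 0.20 in spermatocytes against spermatogonia, and NUP210 -0.14, NUP85 -0.071 in round spermatids against spermatocytes, and NUP43 0.011 in round spermatids against spermatogonia. With a CPM of at least 1 in 3 libraries the value was NUP43 0.0066 in round spermatids against spermatogonia. With DESeq2 the values were NUP98 0.14 in spermatocytes against spermatogonia, and NUP210 -0.042 in round spermatids against spermatocytes, and NUP43 0.042 in round spermatids against spermatogonia. With only the compared stages fitted the values were NUP160 0.016, NUP98 0.16 in spermatocytes against spermatogonia, and NUP43 0.018 in round spermatids against spermatogonia. With the replicate block the values were NUP214 -0.017, NUP62CL -0.074 in spermatocytes against spermatogonia. With the spermatogonia libraries summed the values were NUP214 -0.028, NUP58 -0.032 in spermatocytes against spermatogonia. With no filter on low counts the values were NUP160 0.034, NUP98 0.18 in spermatocytes against spermatogonia, and NUP210 -0.14, NUP85 -0.071 in round spermatids against spermatocytes. Leaving out each library in turn, ranges that crossed 0 were NUP37 -0.20 to 0.034 in round spermatids against spermatogonia, NUP43 -0.0048 to 0.68 in round spermatids against spermatocytes, NUP43 -0.14 to 0.13 in round spermatids against spermatogonia, NUP214 -0.074 to 0.17 in spermatocytes against spermatogonia, NUP133 -0.0098 to 0.21 in spermatocytes against spermatogonia, NUP62CL -0.10 to 0.28 in spermatocytes against spermatogonia, NUP98 -0.17 to 0.034 in spermatocytes against spermatogonia and NUP85 -0.093 to 0.30 in round spermatids against spermatocytes. With library totals of 47963279 or more, all 31 pore genes passed the filter on low counts.

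Replicate numbers 2 and 3 recur in all stages, but same-numbered libraries did not deviate together (r from -0.153 to 0.0474). With 3 libraries per stage and spermatogonia libraries that were much alike, this cannot show whether a number marks a shared animal or preparation. With the number as a replicate block, 11 pore genes were higher and 9 lower, then 6 and 21, then 7 and 20, and for the transport list 20 and 13, 9 and 32, and 13 and 26. Under the block NUP43 was called in spermatocytes against spermatogonia (-0.85) and in round spermatids against spermatocytes (0.79), and NUP155 (0.44), NUP205 (0.38) and NUP50 (-0.28) each lost 1 call.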
